A study of Homo sapiens with 9 samples.

Results

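The 10 genes described here are the coactivator genes YAP1 and WWTR1 (which encodes TAZ), the transcription factor genes TEAD1 and TEAD4, the kinase genes LATS1 and LATS2, and the target genes AMOTL2, ANKRD1, CYR61 and CTGF. They are core genes of the Hippo pathway and widely used readouts of it, and their rows were found by gene symbol, with no threshold on a measured value. Each of the 10 was found on 1 of the 56252 features in the files, which held 31080 reference genes, and all 10 were among the 21048 genes that passed the filter on low values and were tested. CYR61 and CTGF are also known as CCN1 and CCN2.

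In the Hippo pathway, the MST kinases activate the LATS kinases, which phosphorylate YAP and TAZ and thereby keep them in the cytoplasm or mark them for degradation. YAP and TAZ that reach the nucleus cannot bind DNA themselves and switch on genes by binding TEAD transcription factors. Their targets include secreted matrix proteins of the CCN family, and also LATS2 and AMOTL2, which act back on YAP and TAZ as inhibitors. Much of this control acts on the proteins, which mRNA levels do not show.

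A549, a human lung adenocarcinoma cell line, was transfected for 48 h with 50 nM of a scrambled siRNA, siCyclin K#1 or siCyclin K#2, and there were 3 libraries in each of these 3 groups. Both Cyclin K siRNAs target CCNK, which encodes Cyclin K, the partner of the transcriptional kinases CDK12 and CDK13. The labels give RPMI-1640 as the medium and the methods DMEM, the groups are transient transfections of 1 line, and the samples are called independent without a statement of separate cultures, so that p-values measure the spread between these libraries. CCNK had 7.02 ± 0.107 FPKM (SD, n = 3) in scrambled controls, 0.809 ± 0.0857 under siCyclin K#1 and 0.844 ± 0.0661 under siCyclin K#2, which is 11.5% and 12.0% of scrambled.

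FPKM scales the fragments of a gene to its length and to library depth, and the steps between low values gave 31333749 to 33767961 reads per library. Reads in such counts stand for counted fragments, which are read pairs in paired sequencing. Of 13 markers of A549 and lung epithelium, 8 had a mean of at least 1 FPKM, among them KRT8, KRT18 and ALDH1A1, while KRT19, EPCAM, SFTPB, SFTPC and NKX2-1 were at or near 0. The 13 summed to 1167 to 1192 FPKM in the scrambled libraries, 1576 to 1716 under siCyclin K#1 and 1593 to 1774 under siCyclin K#2. Over both siRNAs, 4 of the 8 tested markers rose, ALDH1A1 among them with a mean of 550 FPKM in scrambled controls, 826 under siCyclin K#1 and 921 under siCyclin K#2, and 1 fell, AKR1B10, with 327, 142 and 187 FPKM on a row shared with AKR1B15. Of all tested genes, 17.0% rose and 11.5% fell over both siRNAs. With siCyclin K#1, 5 of the 8 rose and 2 fell, against 26.8% and 18.1% of all tested genes. The 2 that fell were AKR1B10 and KRT18 (KRT18, log2 -0.17, adjusted p = 0.00905). With siCyclin K#2, 5 rose and 1 fell, against 19.8% and 15.2%. Of 10 markers of other cell types, 8 were analysed here, and they summed to 31.9 to 33.0, 44.8 to 47.5 and 40.4 to 42.2 FPKM in the same order. PTPRC, PECAM1, CDH5, COL3A1, DCN and DES were at or near 0, and the sums came from CD68 and from COL1A1, which had 1.79 to 2.21 FPKM in scrambled controls, 13.7 to 14.7 under siCyclin K#1 and 3.10 to 3.30 under siCyclin K#2. The part of these markers in the results was not tested, and in bulk RNA fewer cells of a type and less RNA per cell cannot be told apart.

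Differences were tested with limma on log2(FPKM + 0.1), and a gene is said to rise or fall where its Benjamini-Hochberg adjusted p over all tested genes was under 0.05. Over both siRNAs together, 2 of the 10 genes rose and 3 fell, where 17.0% of all tested genes rose and 11.5% fell. With siCyclin K#1, 2 rose and 6 fell, against 26.8% and 18.1% of all tested genes. With siCyclin K#2, 3 rose and 2 fell, against 19.8% and 15.2%. YAP1 and TEAD4 rose with each siRNA and WWTR1 and LATS1 fell with each, while TEAD1, AMOTL2, ANKRD1 and CTGF passed as lower under siCyclin K#1 and not under siCyclin K#2. The test between the siRNAs, given further on, passed for TEAD1, ANKRD1 and CTGF and not for AMOTL2. The comparisons with each siRNA share the 3 scrambled libraries. The tests over both siRNAs, by limma and by permutation of libraries, take the 6 libraries of 2 reagents as replicates of 1 condition. The 2 reagents differed for 8 of the 10 genes by the test between them, and that difference enters the spread.

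The methods of the study ask for more than a 3-fold change at an unadjusted p below 0.01. By these thresholds, WWTR1 under siCyclin K#1 was the only 1 of the 10 genes called against scrambled siRNA. That rule called 2.29% of all tested genes over both siRNAs, 4.67% under siCyclin K#1 and 1.94% under siCyclin K#2. The p-values in it are those of limma. The results of the paper name a smaller minimum fold change, which was not applied here. In 5 of the 10 genes (YAP1, TEAD4, WWTR1, TEAD1 and LATS1) all 6 siCyclin K libraries lay on 1 side of all 3 scrambled libraries, which held for 32.6% of all tested genes. The median log2 fold change of the 10 genes was -0.73 under siCyclin K#1, beside 0.10 over all tested genes, and 0.11 under siCyclin K#2, beside 0.01. Rescaling to median ratios took the 0.10 away and turned no direction among the 10 genes. It also moved the calls over all tested genes under siCyclin K#1 from 5635 higher and 3800 lower to 4634 higher and 4686 lower.

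**Figure D1:**
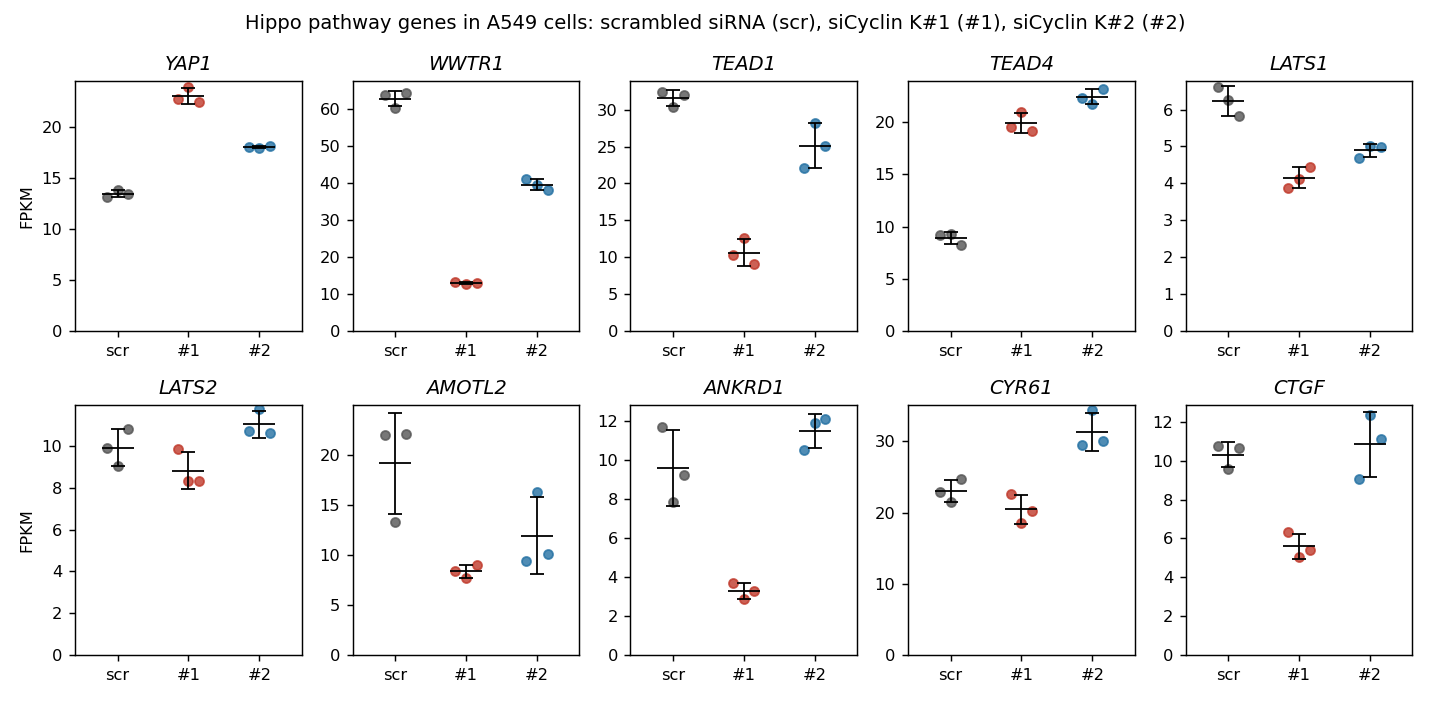
FPKM of the 10 genes in each of the 9 libraries (points; scr, scrambled siRNA; #1 and #2, siCyclin K#1 and siCyclin K#2), with the mean and SD of each group of 3 in black and each vertical axis starting at 0. WWTR1 went from 60.5 to 64.3 FPKM in scrambled controls to 12.7 to 13.3 under siCyclin K#1, TEAD4 was higher in every siCyclin K library than in any scrambled library, and AMOTL2 had 1 library far from the other pair in the scrambled and in the siCyclin K#2 group.

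Without Cyclin K siRNA, WWTR1 had the highest level of the 10 genes, at 62.9 ± 2.12 FPKM (SD, n = 3). TEAD1 followed at 31.6 ± 1.10, CYR61 at 23.0 ± 1.60, AMOTL2 at 19.1 ± 5.03, YAP1 at 13.4 ± 0.343, CTGF at 10.3 ± 0.667, LATS2 at 9.94 ± 0.896, ANKRD1 at 9.62 ± 1.96, TEAD4 at 8.94 ± 0.599 and LATS1 at 6.23 ± 0.400. These levels are per length and can be compared between genes. The libraries of CYR61, AMOTL2 and YAP1 overlapped from each to the next, as did those of CTGF, LATS2, ANKRD1 and TEAD4. The order of neighbours within these runs was thus not separated by the replicates. The ends of the runs were separated, with all scrambled CYR61 libraries above all of YAP1 and all of CTGF above all of TEAD4. LATS1, the lowest, was at the 75.1 percentile of all tested genes and WWTR1 at the 97.8 percentile.

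The coactivators moved in opposite directions. WWTR1 (ENSG00000018408, chromosome 3, minus strand, 149517235 to 149736714 of GRCh38) encodes TAZ, which binds TEAD factors much as YAP does. Its FPKM was 63.9, 60.5 and 64.3 in the scrambled libraries, 13.3, 12.7 and 13.0 under siCyclin K#1 and 41.2, 39.5 and 38.1 under siCyclin K#2. All siCyclin K#1 libraries lay below all siCyclin K#2 libraries, and these below all scrambled libraries, without overlap. WWTR1 fell by 2.26 ± 0.04 (SE) on the log2 scale under siCyclin K#1 (adjusted p = 6.8e-09), to 20.7% of scrambled, and by 0.67 ± 0.04 under siCyclin K#2 (adjusted p = 5.1e-06), to 63.0%. Over both siRNAs it fell by 1.46 ± 0.45 (adjusted p = 0.034; exact two-sided permutation test, p = 0.0238), where the siRNAs differ more than the replicates of either. That pooled call was lost without any 1 of the scrambled or siCyclin K#1 libraries (adjusted p = 0.0552 to 0.0968), while the calls with each siRNA were kept under every alternative run. Between 3358 and 18142 reads lay behind each value.

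YAP1 (ENSG00000137693, chromosome 11, plus strand, 102110461 to 102233423) encodes the founding coactivator of the pathway. It had 13.1, 13.8 and 13.4 FPKM in scrambled controls, 22.8, 23.9 and 22.5 under siCyclin K#1 and 18.1, 17.9 and 18.1 under siCyclin K#2. The 3 groups did not overlap, in the reverse order of WWTR1. YAP1 rose 1.72-fold under siCyclin K#1 (log2 fold change 0.77 ± 0.04, adjusted p = 6.8e-07) and 1.34-fold under siCyclin K#2 (0.42 ± 0.04, adjusted p = 4.1e-05), and by 0.60 ± 0.11 over both (adjusted p = 0.00284, exact p = 0.0119, the smallest that 6 against 3 libraries allow). The sum of YAP1 and WWTR1 was 76.3 ± 1.83 FPKM in scrambled controls, 36.1 ± 0.584 under siCyclin K#1 and 57.6 ± 1.56 under siCyclin K#2 (SD, n = 3 each), so that the gain in YAP1 was smaller than the loss of WWTR1.

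Of the TEAD factors, which carry the DNA-binding part of the complex, TEAD4 rose with both siRNAs and TEAD1 fell under siCyclin K#1. TEAD4 (ENSG00000197905, chromosome 12, plus strand, 2959330 to 3040673) had 9.24, 9.33 and 8.25 FPKM in scrambled controls, 19.6, 21.0 and 19.1 under siCyclin K#1 and 22.3, 21.8 and 23.2 under siCyclin K#2. Every siCyclin K library was above every scrambled library. The rise was 2.23-fold under siCyclin K#1 (log2 1.15 ± 0.06, adjusted p = 8.7e-07) and 2.51-fold under siCyclin K#2 (1.32 ± 0.06, adjusted p = 8.6e-07), and 1.23 ± 0.08 over both (adjusted p = 5.6e-06, exact p = 0.0119). TEAD4 was the only 1 of the 10 genes to change by more than 1 on the log2 scale with both siRNAs, and 608 to 1679 reads lay behind each value.

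TEAD1 (ENSG00000187079, chromosome 11, plus strand, 12674591 to 12944483) spans 269.9 kb, the longest of the 10 genes. It had 32.4, 30.3 and 32.0 FPKM in scrambled controls, 10.3, 12.6 and 9.05 under siCyclin K#1 and 22.1, 28.2 and 25.1 under siCyclin K#2. The groups did not overlap, but the coefficient of variation was 12.1% under siCyclin K#2, against 3.48% in scrambled controls. With siCyclin K#1, TEAD1 fell by 1.57 ± 0.12 on the log2 scale (adjusted p = 9.9e-06), to 33.7% of scrambled. With siCyclin K#2 the log2 fold change was -0.33 ± 0.12 (95% interval -0.61 to -0.06, adjusted p = 0.0641), and over both siRNAs it was -0.95 ± 0.36 (adjusted p = 0.0754, exact p = 0.0357). Without the second siCyclin K#2 library both values passed, at -0.42 (adjusted p = 0.0399) and -1.11 (adjusted p = 0.0332). The value under siCyclin K#2 also passed without the second or the third siCyclin K#1 library, and that over both without the third siCyclin K#2 library, and over all single libraries left out the adjusted p ran from 0.0242 to 0.19 and from 0.0332 to 0.174.

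TEAD2 and TEAD3, the remaining members of the family, rose over both siRNAs, TEAD2 by 0.76 ± 0.09 (adjusted p = 0.00022) and TEAD3 by 0.53 ± 0.17 (adjusted p = 0.0394). TEAD3 lost the call without any 1 of the scrambled or siCyclin K#1 libraries (adjusted p = 0.0647 to 0.129), and with all libraries it lost the call under quantile normalization (0.0718), with every gene tested (0.0562), without the trend (0.0534), with limma-voom on recovered reads (0.0528) and with median-ratio rescaling (0.0505). The 4 TEAD genes summed to 47.4 ± 0.422 FPKM in scrambled controls, 42.0 ± 2.88 under siCyclin K#1 and 58.6 ± 2.24 under siCyclin K#2 (SD, n = 3 each). VGLL4, a cofactor that competes with YAP and TAZ for TEAD factors, rose by 0.79 ± 0.18 over both siRNAs (adjusted p = 0.00924), and more under siCyclin K#1 than under siCyclin K#2 by 0.61 ± 0.06 (adjusted p = 0.00015). VGLL3, of the same family, was higher under siCyclin K#1 than under siCyclin K#2 by 1.25 ± 0.08 (adjusted p = 1.1e-05). Of the 6 genes listed as other TEAD factors and cofactors, 4 were tested: 3 rose and 0 fell over both siRNAs (17.0% and 11.5% of all tested genes), all 4 rose under siCyclin K#1 (26.8%), and 3 rose under siCyclin K#2 (19.8%). Their median log2 fold change over both siRNAs was 0.65, beside 0.06 over all tested genes.

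The ratio of 2 paralogs within a library puts these changes side by side. The ratio of YAP1 to WWTR1 was 0.206, 0.228 and 0.208 in the scrambled libraries, 1.71, 1.88 and 1.72 under siCyclin K#1 and 0.438, 0.454 and 0.475 under siCyclin K#2. TAZ mRNA was thus the more abundant of the pair in scrambled controls and under siCyclin K#2, and YAP1 mRNA under siCyclin K#1. Over both siRNAs the ratio was higher by 2.06 on the log2 scale (exact two-sided permutation test, p = 0.0238, adjusted over 3 ratios 0.0238). The ratio of TEAD1 to TEAD4 was 3.50, 3.25 and 3.88, then 0.528, 0.599 and 0.473, and then 0.989, 1.29 and 1.08 in the same order of groups. It was lower in the siCyclin K libraries (log2 difference -2.19, exact p = 0.0119, adjusted p = 0.0179), without overlap. The 2 genes of each of these ratios lay without overlap on opposite sides of the scrambled libraries. The separation of both ratios thus follows from the values given above and is no further test. Without any 1 of the siCyclin K#1 libraries the ratio of YAP1 to WWTR1 missed the threshold (exact adjusted p = 0.0714).

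**Figure D2:**
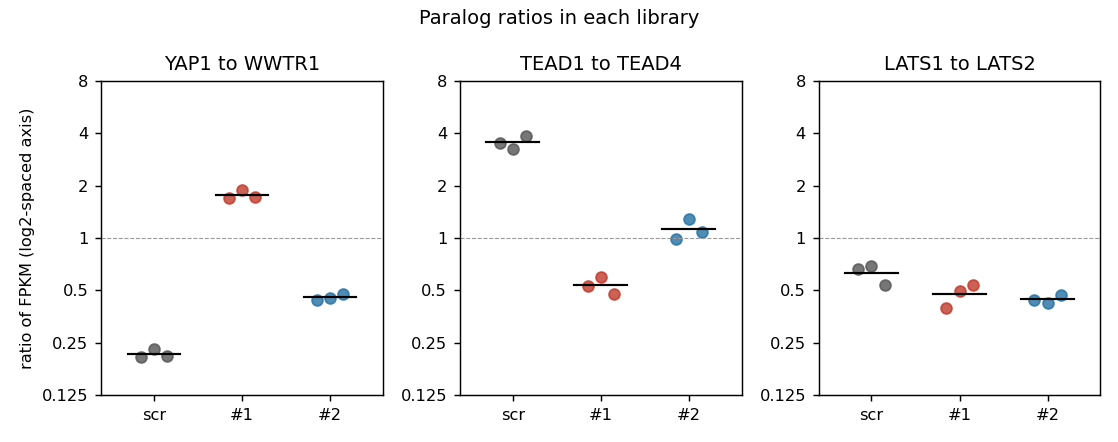
Ratio of FPKM between paralogs in each of the 9 libraries (points), with the group mean as a black line, on a log2-spaced axis where the dashed line marks equal levels (scr, scrambled siRNA; #1 and #2, the Cyclin K siRNAs). YAP1 to WWTR1 went from a mean of 0.214 to 1.77 under siCyclin K#1 and 0.456 under siCyclin K#2, TEAD1 to TEAD4 from 3.55 to 0.533 and 1.12, and LATS1 to LATS2 from 0.632 to 0.474 and 0.444.

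Of the LATS kinases, which inhibit YAP and TAZ, LATS1 fell and LATS2 did not pass the test. LATS1 (ENSG00000131023, chromosome 6, minus strand, 149658153 to 149718256) had 6.61, 6.27 and 5.82 FPKM in scrambled controls, 3.88, 4.13 and 4.45 under siCyclin K#1 and 4.70, 5.01 and 4.99 under siCyclin K#2. Each of the 6 siCyclin K libraries had less LATS1 than any scrambled library. LATS1 fell by 0.58 ± 0.07 under siCyclin K#1 (adjusted p = 0.00019), to 66.6% of scrambled, by 0.34 ± 0.07 under siCyclin K#2 (adjusted p = 0.00569), to 78.6%, and by 0.46 ± 0.10 over both (adjusted p = 0.0074, exact p = 0.0119).

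LATS2 (ENSG00000150457, chromosome 13, minus strand, 20973032 to 21061547), a kinase of the pathway and itself a target of YAP, had 9.92, 9.06 and 10.9 FPKM in scrambled controls, 9.85, 8.33 and 8.34 under siCyclin K#1 and 10.7, 11.8 and 10.7 under siCyclin K#2. Each siCyclin K group overlapped the scrambled libraries. The log2 fold change was -0.17 (95% interval -0.37 to 0.03, adjusted p = 0.163) under siCyclin K#1 and 0.15 (-0.05 to 0.36, adjusted p = 0.223) under siCyclin K#2, and -0.01 over both (-0.28 to 0.27, adjusted p = 0.979). With median-ratio rescaling or without the first siCyclin K#1 library, the value under siCyclin K#1 passed, at -0.29 (adjusted p = 0.0275) and -0.25 (adjusted p = 0.0448, from 0.0448 to 0.414 over all libraries left out), as it did with quantile normalization (-0.25, adjusted p = 0.0453). The ratio of LATS1 to LATS2 was 0.632 ± 0.0838 in scrambled controls, 0.474 ± 0.0724 under siCyclin K#1 and 0.444 ± 0.0223 under siCyclin K#2 (SD, n = 3 each), a log2 difference of -0.45 over both siRNAs (exact p = 0.0119, adjusted p = 0.0179).

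The target genes are read through TEAD factors, which are known to bind the letters GGAATG, or CATTCC on the opposite strand, and their promoters are shown because the targets differ in how often these letters occur. The promoter windows are from RefSeq (GRCh38.p14) and run from 250 bases before to 50 after an annotated start; 7 of the 10 genes matched, with 10 windows, and CYR61, TEAD1 and TEAD4 had no entry. The sequences before the start of 4 genes read, 5′ to 3′ on the strand of the gene and with the TEAD letters in capitals, where matches inside an exon of GENCODE 29 are shown as sites of 30 bases:
CTGF, chr6:131951374-131951622, minus strand, before the first exon: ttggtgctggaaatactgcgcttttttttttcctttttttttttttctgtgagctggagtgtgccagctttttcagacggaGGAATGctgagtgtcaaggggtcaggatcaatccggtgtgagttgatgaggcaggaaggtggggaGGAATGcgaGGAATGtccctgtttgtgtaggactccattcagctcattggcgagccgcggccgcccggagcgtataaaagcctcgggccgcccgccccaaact
ANKRD1, chr10:90921277-90921337, minus strand, before the first exon: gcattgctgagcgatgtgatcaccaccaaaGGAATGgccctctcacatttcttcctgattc
ANKRD1, chr10:90921198-90921227, minus strand, site in the first exon: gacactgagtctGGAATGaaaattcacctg
AMOTL2, chr3:134374499-134374528, minus strand, site in the first exon: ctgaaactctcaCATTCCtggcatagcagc
YAP1, chr11:102110197-102110446, plus strand, before the first exon: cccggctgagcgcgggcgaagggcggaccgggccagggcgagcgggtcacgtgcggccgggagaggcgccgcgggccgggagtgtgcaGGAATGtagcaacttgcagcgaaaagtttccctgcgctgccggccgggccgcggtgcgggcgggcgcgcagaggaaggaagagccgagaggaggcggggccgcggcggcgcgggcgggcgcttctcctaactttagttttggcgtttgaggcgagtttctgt

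CTGF had 3 such matches, all before its first exon, whose first bases lay 169, 104 and 95 bases before the start, and at least 3 were found in 0.128% of 35116 RefSeq windows. ANKRD1 had 2, at 220 and 128 bases before the RefSeq start, and at least 2 were found in 1.37% of windows. GENCODE 29 starts this gene further upstream, at 90921276, which lies between the 2 matches. AMOTL2 had 1, at 69 bases, in 1 of its windows, and YAP1 had 1, at 162 bases. By GENCODE 29, the nearer match of ANKRD1 and that of AMOTL2 lie in an annotated exon of the gene. The order of the exons was not checked, and first exon in the labels above stands for an annotated exon met in the window. AMOTL2 as a whole starts upstream of its match, at 134375479. At least 1 match was found in 14.0% of windows. LATS2 had 1 match just after its start, and the windows of WWTR1 and LATS1 held none. The letters TGACTCA or TGAGTCA of AP-1, a factor that often acts with TEAD, occurred in none of the 10 windows and in 4.95% of all windows. A match is a description of the sequence and not a measured binding site.

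**Figure D3:**
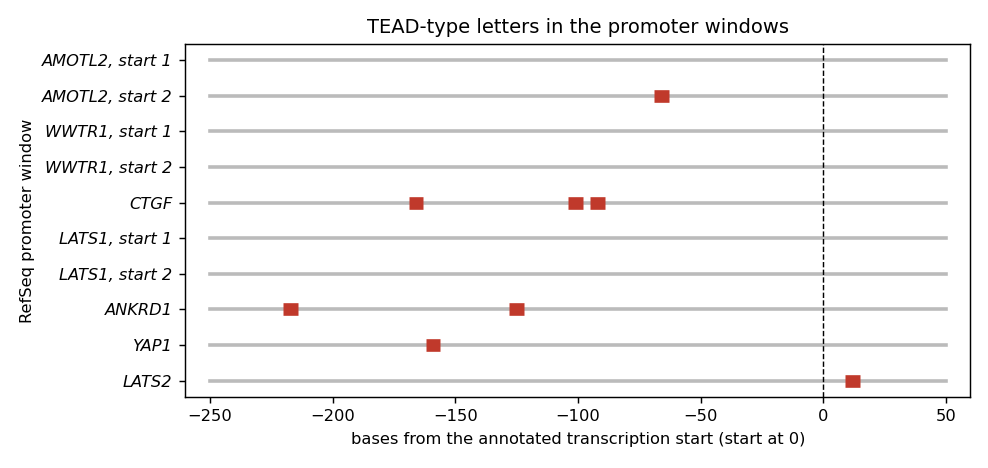
Positions of the TEAD letters (red blocks of 6 bases, to scale) in the 10 RefSeq promoter windows of 7 genes. The axis gives bases from the transcription start annotated by RefSeq for each window, which is at 0 (dashed line). CTGF held 3 matches, ANKRD1 2, and AMOTL2 (1 of its windows), YAP1 and LATS2 1 each.

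ANKRD1 (ENSG00000148677, chromosome 10, minus strand, 90912096 to 90921276) encodes a nuclear ankyrin repeat protein and is among the most used readouts of YAP and TAZ. It had 11.7, 7.87 and 9.27 FPKM in scrambled controls, 3.70, 2.87 and 3.30 under siCyclin K#1 and 10.5, 11.9 and 12.1 under siCyclin K#2. All siCyclin K#1 libraries were below all others, while the siCyclin K#2 libraries overlapped the scrambled ones. ANKRD1 fell by 1.51 ± 0.15 on the log2 scale under siCyclin K#1 (adjusted p = 3.9e-05), to 34.2% of scrambled, whereas the value under siCyclin K#2 was 0.27 (95% interval -0.06 to 0.61, adjusted p = 0.192) and that over both siRNAs was -0.62 (-1.76 to 0.52, adjusted p = 0.406, exact p = 0.452). Without the first scrambled library, which was the highest of the 3, the value under siCyclin K#2 was 0.42 and passed (adjusted p = 0.0338, from 0.0338 to 0.494 over all libraries left out). The values rest on 178 to 784 reads.

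CTGF (ENSG00000118523, chromosome 6, minus strand, 131948176 to 131951373), a secreted matrix protein of the CCN family, had 10.7, 9.56 and 10.7 FPKM in scrambled controls, 6.31, 5.05 and 5.41 under siCyclin K#1 and 9.06, 12.3 and 11.1 under siCyclin K#2. Again the siCyclin K#1 libraries stood below all others and the siCyclin K#2 libraries lay on both sides of the scrambled ones. CTGF fell by 0.88 ± 0.12 under siCyclin K#1 (adjusted p = 0.00037), to 54.1% of scrambled, and its log2 fold change under siCyclin K#2 was 0.06 (-0.22 to 0.34, adjusted p = 0.75), which quantile normalization turned to -0.0145. Over both siRNAs it was -0.41 (adjusted p = 0.318, exact p = 0.31).

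CYR61 (ENSG00000142871, chromosome 1, plus strand, 85580761 to 85583962), the other CCN protein among the targets, passed as lower with neither siRNA. It had 23.0, 21.5 and 24.7 FPKM in scrambled controls, 22.6, 18.5 and 20.2 under siCyclin K#1 and 29.5, 34.4 and 30.0 under siCyclin K#2. Here the siCyclin K#1 libraries overlapped the scrambled ones and the siCyclin K#2 libraries were above all others. CYR61 rose 1.36-fold under siCyclin K#2 (log2 0.44 ± 0.09, adjusted p = 0.00455). With siCyclin K#1 the value was -0.17 (-0.37 to 0.03, adjusted p = 0.153), which passed under 1 of the alternatives, median-ratio rescaling, at -0.29 (adjusted p = 0.0267), where leaving out a library gave 0.0511 to 0.404, and over both siRNAs it was 0.13 (adjusted p = 0.646, exact p = 0.536). This last value was 0.05 with median-ratio rescaling and 0.04 (without the second siCyclin K#2 library) to 0.22 (without the second siCyclin K#1 library) when a library was left out.

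AMOTL2 (ENSG00000114019, chromosome 3, minus strand, 134355874 to 134375479) encodes an angiomotin family protein that holds YAP and TAZ at cell junctions. It had 21.9, 13.3 and 22.1 FPKM in scrambled controls, 8.35, 7.64 and 9.004 under siCyclin K#1 and 9.33, 16.3 and 10.1 under siCyclin K#2. Every scrambled library had more AMOTL2 than every siCyclin K#1 library, while the second siCyclin K#2 library was above the second scrambled one. AMOTL2 fell by 1.15 ± 0.24 under siCyclin K#1 (adjusted p = 0.00436), to 43.6% of scrambled, and by 0.92 ± 0.24 over both siRNAs (adjusted p = 0.0173, exact p = 0.0238). With siCyclin K#2 the value was -0.68 (-1.24 to -0.13, adjusted p = 0.0601). It passed without the second scrambled library, at -0.93 (adjusted p = 0.0138), and without the second siCyclin K#2 library, at -0.93 (adjusted p = 0.0123), and ranged from 0.0123 to 0.178 over all libraries left out. The pooled call was lost without the first or the third scrambled library (adjusted p = 0.0805 and 0.0806).

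The spread of AMOTL2 between replicates was large for its level. Its coefficient of variation was 26.3% in the scrambled and 31.9% in the siCyclin K#2 libraries, where genes of like level had medians of 4.60% and 4.59%, and it was at the 95.5 and 96.9 percentile of these genes. The row that holds it carries a StringTie locus name with AMOTL2 as its reference gene. ANKRD1 varied by 20.3% in the scrambled libraries (92.9 percentile) and TEAD1 by 16.7% under siCyclin K#1 (91.8 percentile), while YAP1 varied by 0.471% under siCyclin K#2 (0.91 percentile).

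**Figure D4:**
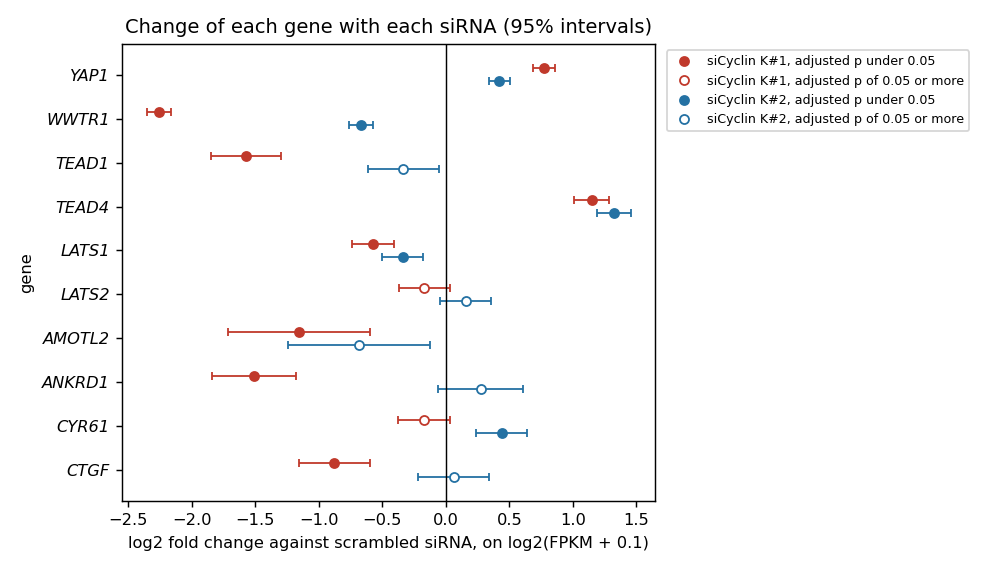
Log2 fold change of the 10 genes against scrambled siRNA on the scale of log2(FPKM + 0.1), under siCyclin K#1 in red and siCyclin K#2 in blue (points; bars, 95% intervals of the limma fit; filled, adjusted p under 0.05; open, 0.05 or more). YAP1 and TEAD4 lay to the right of 0 and WWTR1 and LATS1 to the left with both siRNAs, while ANKRD1 and CTGF were filled under siCyclin K#1 alone, at -1.51 and -0.88.

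The siRNAs were then compared with each other, where the scrambled libraries enter the spread and not the difference. Of the 10 genes, 1 was higher and 7 were lower under siCyclin K#1 than under siCyclin K#2, where 17.1% of all tested genes were higher and 12.3% lower. By the thresholds of the study WWTR1 and ANKRD1 were called, beside 1.53% of all tested genes. Over all tested genes, median-ratio rescaling moved the calls from 3600 higher and 2591 lower to 2836 higher and 3232 lower. The median log2 difference of the 10 genes was -0.54, beside 0.08 over all tested genes.

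ANKRD1 had the largest difference, -1.78 ± 0.15 on the log2 scale (adjusted p = 3.8e-05), followed by WWTR1 at -1.59 ± 0.04 (adjusted p = 1.7e-07), TEAD1 at -1.24 ± 0.12 (adjusted p = 0.00011), CTGF at -0.94 ± 0.12 (adjusted p = 0.00052) and CYR61 at -0.61 ± 0.09 (adjusted p = 0.00097). YAP1 was higher under siCyclin K#1 by 0.35 ± 0.04 (adjusted p = 0.00018). LATS2 differed by -0.32 ± 0.09 (adjusted p = 0.0243) and LATS1 by -0.24 ± 0.07 (adjusted p = 0.0373). Both of these small differences were lost in some fits that left out a library, LATS1 without the second scrambled, the first or the second siCyclin K#1 or the second or the third siCyclin K#2 library (adjusted p = 0.0537 to 0.111) and LATS2 without the second or the third siCyclin K#1 or the second siCyclin K#2 library (adjusted p = 0.0791 to 0.0817). TEAD4 (-0.17, 95% interval -0.31 to -0.04, adjusted p = 0.0564) and AMOTL2 (-0.47, -1.03 to 0.09, adjusted p = 0.199) did not pass, the latter with -0.62 to -0.22 when a library was left out (-0.22 without the second siCyclin K#2 library). TEAD4 passed without the third scrambled library (adjusted p = 0.0277) or without the second siCyclin K#1 library (adjusted p = 0.0442), from 0.0277 to 0.16 over all libraries left out. CCNK itself was at 11.5% and 12.0% of scrambled under siCyclin K#1 and siCyclin K#2, and its libraries overlapped between the siRNAs.

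An siRNA can also act on other mRNAs through its seed, the short stretch that pairs with 3′ untranslated regions. The letters GTGATAA, the match of the seed of siCyclin K#1, occurred in none of the longest annotated 3′ untranslated regions of the 10 genes, and in 9.31% of 19145 genes. TACAGGT, the match for siCyclin K#2, occurred 1 time each in TEAD1 and LATS1 and in none of the other 8 genes, where 11.5% of all genes held it. Among untranslated regions of like length the share was 37.4% for TEAD1 and 23.3% for LATS1. Against scrambled siRNA, siCyclin K#2 gave LATS1 a log2 fold change of -0.34 (adjusted p = 0.00569) and TEAD1 one of -0.33 (adjusted p = 0.0641), and the part of these matches in the values was not tested. Matches of 7 letters in this region are all that was searched.

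The 10 genes differ widely in length, and long and short genes were found among those that fell under siCyclin K#1. TEAD1, WWTR1 and YAP1, with spans of 269.9, 219.5 and 123.0 kb, had log2 fold changes of -1.57, -2.26 and 0.77. LATS2, TEAD4 and LATS1, with 88.52, 81.34 and 60.1 kb, had -0.17, 1.15 and -0.58. AMOTL2, ANKRD1, CYR61 and CTGF, with 19.61, 9.181, 3.202 and 3.198 kb, had -1.15, -1.51, -0.17 and -0.88. Other annotated features within the spans of the 10 genes had at most 0.959 FPKM. WWTR1-AS1, on the opposite strand of WWTR1, had 0.0483 to 0.0796 FPKM in scrambled controls and 0.155 to 0.344 in the siCyclin K libraries. AL133346.1, opposite to CTGF, had 0.359 to 0.498 FPKM in scrambled controls and at most 0.182 in the siCyclin K libraries. Whether the counting used strand is not stated, so that reads of such pairs cannot be told apart where their exons overlap.

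The other genes of the pathway were read from lists of upstream regulators, further targets and relatives. Of 27 upstream kinases, adaptors and regulators, 25 were tested, of which 7 rose and 3 fell over both siRNAs, against 17.0% and 11.5% of all tested genes. With siCyclin K#1, 12 rose and 8 fell (26.8% and 18.1% of all tested genes), and under siCyclin K#2, 10 rose and 3 fell (19.8% and 15.2%). Their median log2 fold change over both siRNAs was 0.19, beside 0.06 over all tested genes. MAP4K4, a kinase that can activate LATS, rose by 1.63 ± 0.05 (adjusted p = 1.2e-07), from 11.1 to 11.6 FPKM in the scrambled libraries to 34.0 to 36.9 in the siCyclin K libraries. AMOTL1, a relative of AMOTL2, rose by 1.39 ± 0.13 (adjusted p = 5.3e-05), and WWC1, the KIBRA scaffold, by 0.90 ± 0.07 (adjusted p = 2.3e-05). FAT1, an atypical cadherin, rose by 0.69 ± 0.05 (adjusted p = 1e-05) and TAOK3, a kinase upstream of the MST kinases, by 0.68 ± 0.13 (adjusted p = 0.00403).

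MOB1A, which encodes an activator of the LATS kinases, fell by 0.81 ± 0.21 over both siRNAs (adjusted p = 0.0166), and this call was lost without any 1 scrambled library (adjusted p = 0.0519 to 0.0597). It was also lower under siCyclin K#1 than under siCyclin K#2, by 0.73 ± 0.05 (adjusted p = 1.1e-05). STK3, which encodes the kinase MST2, had 1.61 to 1.78 FPKM in scrambled controls, 0.633 to 0.729 under siCyclin K#1 and 1.66 to 1.89 under siCyclin K#2, a log2 difference of -1.25 ± 0.10 between the siRNAs (adjusted p = 3.3e-05) that was -0.72 with a pseudocount of 1 FPKM (adjusted p = 3.8e-05). FAT4, another atypical cadherin, was higher under siCyclin K#1 than under siCyclin K#2 by 0.96 ± 0.13 (adjusted p = 0.00059). Together with LATS1, the kinase list therefore held members that rose and members that fell with the same siRNA.

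Of 17 further YAP and TAZ target genes, 7 rose and 4 fell over both siRNAs, 8 rose and 6 fell under siCyclin K#1, and 10 rose and 4 fell under siCyclin K#2. Of all tested genes, 17.0% rose and 11.5% fell over both siRNAs, 26.8% and 18.1% under siCyclin K#1, and 19.8% and 15.2% under siCyclin K#2. Their median log2 fold change over both siRNAs was 0.26, beside 0.06 over all tested genes. NT5E, a cell surface nucleotidase also known as CD73, fell by 2.55 ± 0.33 (adjusted p = 0.00036), from 38.6 to 40.2 FPKM in scrambled controls to 4.18 to 5.08 under siCyclin K#1 and 7.11 to 12.2 under siCyclin K#2. FJX1, which encodes a secreted regulator of the FAT and Dachsous pathway, fell by 1.23 ± 0.14 (adjusted p = 0.00015) and GADD45A, a stress-induced gene, by 0.59 ± 0.14 (adjusted p = 0.0108), the latter without the call when the first scrambled library was left out (adjusted p = 0.0568). CCDC80, an extracellular matrix protein, rose by 2.14 ± 0.11 (adjusted p = 1.6e-06), and IGFBP3, a secreted binding protein of insulin-like growth factors, by 1.73 ± 0.34 (adjusted p = 0.00424). RBMS3, an RNA-binding protein gene with at most 0.164 FPKM in the scrambled libraries, rose by 1.24 ± 0.36 (adjusted p = 0.0266) and lost this call without any 1 scrambled library (adjusted p = 0.0576 to 0.105). At so low a level the size depends on the pseudocount, and with 1 FPKM in place of 0.1 it was 0.37 and did not pass (adjusted p = 0.055), with 0.5 FPKM it was 0.60 (adjusted p = 0.0451) and with limma-voom on recovered reads 1.76.

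Between the siRNAs, TGFB2 was lower under siCyclin K#1 than under siCyclin K#2 by 1.13 ± 0.06 (adjusted p = 2.7e-06), IGFBP3 by 1.13 ± 0.16 (adjusted p = 0.00091) and NT5E by 1.08 ± 0.17 (adjusted p = 0.00162). The row of TGFB2 is shared with TGFB2-OT1, whose reads cannot be told apart from it. Of 6 CCN and ankyrin repeat relatives, 4 were tested, and 0 passed over both siRNAs or under siCyclin K#2. With siCyclin K#1, 0 rose and 2 fell (26.8% and 18.1% of all tested genes), WISP2 and ANKRD23. WISP2, a CCN relative of CYR61 and CTGF, was lower under siCyclin K#1 than under siCyclin K#2 by 1.07 ± 0.15 (adjusted p = 0.00096) at 0.762 FPKM or less, a difference of -0.605 with a pseudocount of 0.5 FPKM (adjusted p = 0.00112) and -0.39 with 1 FPKM (adjusted p = 0.00121). ANKRD23, on a row shared with ANKRD39, differed by -0.36 ± 0.10 (adjusted p = 0.0311), a call lost without any 1 siCyclin K#2 library (adjusted p = 0.0575 to 0.0854), and by -0.235 without the third siCyclin K#1 library (adjusted p = 0.0496).

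**Figure D5:**
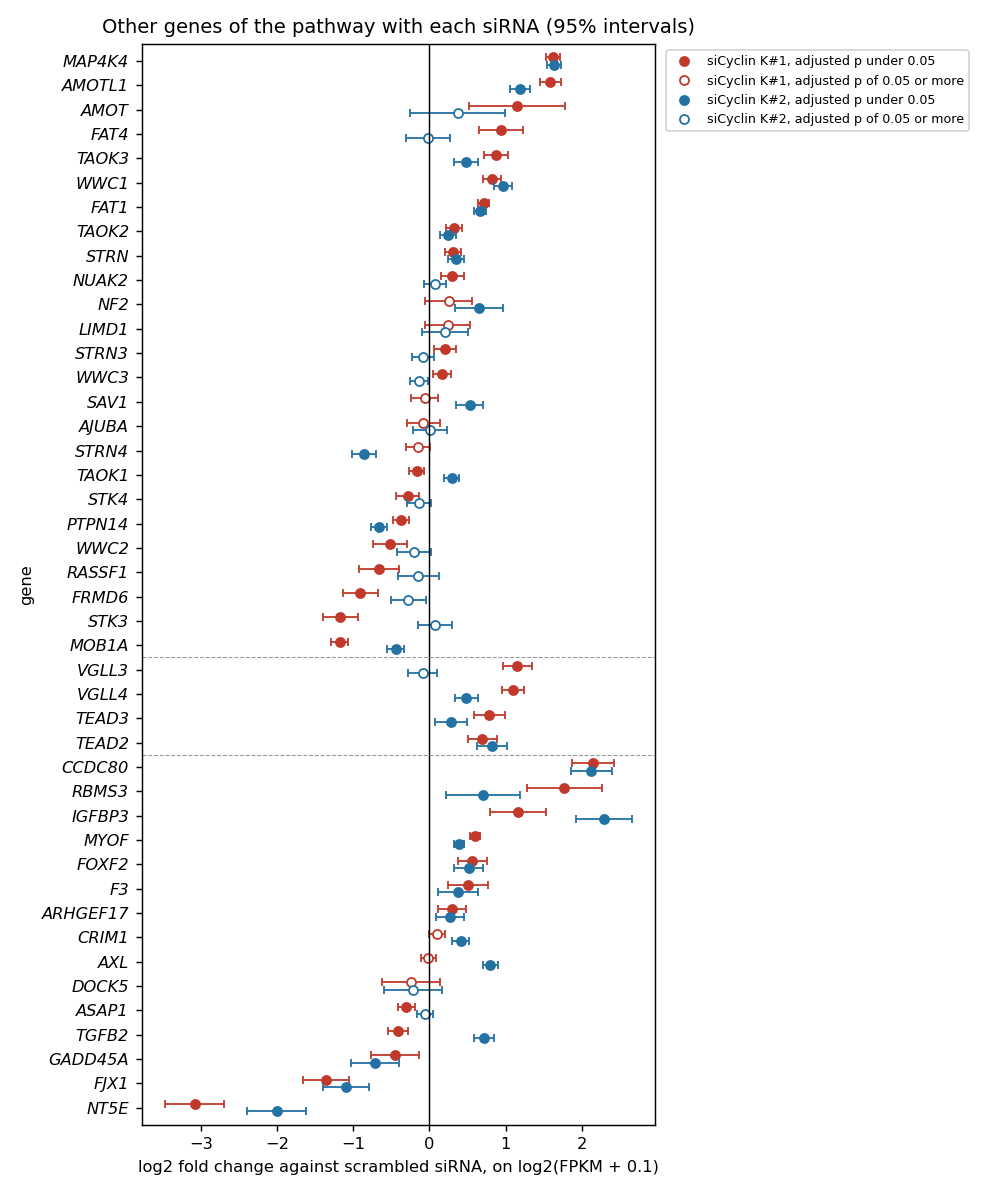
Log2 fold change against scrambled siRNA of the other tested genes of the pathway, under siCyclin K#1 in red and siCyclin K#2 in blue (points; bars, 95% intervals of the limma fit; filled, adjusted p under 0.05; open, 0.05 or more), in blocks divided by dashed lines: upstream regulators, other TEAD factors and cofactors, and further targets, each ordered by the value under siCyclin K#1. MAP4K4 and CCDC80 had nearly the same value with both siRNAs, NT5E was the lowest, and STK3, VGLL3 and TGFB2 differed between the siRNAs.

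The genes most like each of 3 targets were sought over the 9 libraries, by the root mean square difference of log2(FPKM + 0.1) after setting each gene to its scrambled mean, among 11242 genes with a mean of at least 1 FPKM. ANKRD1 was most like PRELID3B (0.18), XDH (0.18) and RBBP8 (0.21), CTGF most like KLHL5 (0.11), UTP18 (0.12) and ZNF106 (0.12), and CYR61 most like UVRAG (0.09) and MTCL1 (0.10). CTGF ranked 101 and TEAD1 120 in likeness to ANKRD1, WWTR1 ranked 1526, and YAP1 ranked 9369. LATS2 was the nearest of the 10 genes to CYR61, at rank 155.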

How the data were processed

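RNA from 9 A549 libraries was sequenced as paired reads on an Illumina system, and the FPKM values the authors deposited came from StringTie 1.3.3b per the labels. Aligner, filters and annotation release are not given in the sources used here. The files use GRCh38, and GENCODE 29 gave positions and exon lengths. Groups and replicate numbers came from the labels.

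Rows of 1 reference gene were summed, and 21048 genes with at least 0.1 FPKM in 3 or more libraries entered limma 3.58.1 in R 4.3.3 (lmFit, eBayes with trend) on log2(FPKM + 0.1), with Benjamini-Hochberg adjustment. A fold change on this scale makes changes of low genes look smaller. Both siRNAs were tested as 2 groups, and each siRNA and their difference as 3 groups that share a spread. Single genes and paralog ratios had an exact two-sided permutation test (scipy 1.17.1), whose smallest p is 0.0119, and 3 against 3 libraries cannot go below 0.1. The fit was first tested on simulated data with known changes. Of the low values of GENCODE features, 97.3% to 97.6% per library were whole multiples of 1 read (within 0.05 of a read), which gave the depth, and limma-voom on these reads was added after the data were seen. The values of YAP1, LATS1, AMOTL2, CYR61 and CTGF were not whole multiples in every library, so that limma-voom used fractions of reads for them. Depth covers counting error only.

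All 10 genes are named. From each list, at most 6 genes past the test over both siRNAs and at most 3 past the test between siRNAs were named, by size of change. The genes and lists were chosen with earlier results of these data known. CD3E, MOB1B and VGLL1 were not analysed here, and some items are not reported here. Alternatives were other pseudocounts (0.5 and 1), filters, median-ratio and quantile scaling, no trend, a replicate block and leaving out each library.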

Additional observations from a re-analysis of the deposited data

Results flagged for a closer look

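Of the 10 genes, AMOTL2 had 1 siCyclin K library far from the others: the second siCyclin K#2 library, at 16.3 FPKM, where the other 5 lay between 7.64 and 10.1 FPKM. Its gap to the next library was 0.714 of the whole range, above Dixon's critical value at 95% for 6 samples. About 1 in 20 groups passes that value by chance, and 10 genes were searched over groups that join both siRNAs.

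The effects of the siRNAs differed by the limma test of the difference itself for 8 of the 10 genes. By the same test, 17.1% of all tested genes were higher under siCyclin K#1 than under siCyclin K#2 and 12.3% lower. The log2 difference of siCyclin K#1 minus siCyclin K#2 was -1.78 for ANKRD1, -1.59 for WWTR1, -1.24 for TEAD1, -0.94 for CTGF, -0.61 for CYR61, -0.32 for LATS2, -0.24 for LATS1 and 0.35 for YAP1. COL1A1, which is no member of the pathway, also differed, at 2.10 (adjusted p = 7.1e-07). Its part in these differences was not tested.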

How the results depend on the processing

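Of 720 values of the 10 genes under other settings, 668 kept their direction and their side of the threshold, 23 lost the call, 24 gained it and 5 changed sign, none of the latter in a value that passed. CTGF with siCyclin K#2 was -0.0145 with quantile normalization and -0.0374 (without siCyclin K#2 replicate 2) to 0.18 when a library was left out. LATS2 over both siRNAs was -0.0712 to 0.0576 when a library was left out, positive without scrambled replicate 3 and without siCyclin K#1 replicate 2 or 3; the cause was not tested. The number of the 10 genes past the threshold over both siRNAs, 5, was 3 to 6 when a library was left out, with 3 without scrambled replicate 1 or 3. Calls over all tested genes fell as well, from 3584 higher and 2431 lower of 21048. They were 2604 and 1609 of 20646 without scrambled replicate 1, and 2664 and 1650 of 20636 without scrambled replicate 3. The log2 difference of the YAP1 to WWTR1 ratio was 1.85 to 2.27 when a library was left out. WWTR1 over both siRNAs lost the call with no filter on low values (adjusted p = 0.0512) and without the trend (adjusted p = 0.0521). With a filter at a mean of 1 FPKM, with median-ratio rescaling and with limma-voom on recovered reads, calls were gained by TEAD1 under siCyclin K#2 (adjusted p = 0.0459, 0.0346 and 0.0232), AMOTL2 under siCyclin K#2 (0.0432, 0.0487 and 0.0482) and TEAD4 between the siRNAs (0.0389, 0.0114 and 0.049). Over both siRNAs limma-voom called 3200 genes higher and 2305 lower. Of 464 values of the other named genes under other settings, 440 kept their side of the threshold and 24 lost the call.

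Same-numbered libraries of different groups did not deviate together (correlations of -0.0711 to 0.0379 over 9 pairs), and 2 of the 9 libraries correlated best with their own number. Whether same-numbered libraries shared a culture or batch is not stated and cannot be told from these correlations. With the number as a replicate block, 4, 8, 5 and 6 of the 10 genes passed over both siRNAs, under siCyclin K#1, under siCyclin K#2 and between the siRNAs, against 5, 8, 5 and 8 without it. Over all 21048 tested genes, the block moved the calls over both siRNAs from 3584 higher and 2431 lower to 2865 and 1908. Under siCyclin K#1 they went from 5635 and 3800 to 5377 and 3685, and under siCyclin K#2 from 4161 and 3192 to 3922 and 3025. Between the siRNAs they went from 3600 and 2591 to 3227 and 2453. The calls lost with the block were, among the 10 genes, those of WWTR1 over both siRNAs (adjusted p = 0.0753) and of LATS1 and LATS2 between the siRNAs (adjusted p = 0.0769 and 0.0518), and among the other named genes those of TEAD3 and RBMS3 over both siRNAs (adjusted p = 0.0845 and 0.0553). The depth limits the lowest values most: ANKRD1 with siCyclin K#1 rests on 178 to 237 reads per library.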
